A study of Mus musculus with 12 samples.

Results

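The mitochondrially encoded genes were taken as every gene whose symbol begins with mt-, which gave 37 of the 55291 symbols in the count table. They comprised 13 messenger RNA genes, 2 ribosomal RNA genes and 22 transfer RNA genes, and all 37 were found on the mitochondrial chromosome (chrM) of the GENCODE M21 annotation of the mouse genome build mm10. Expression was measured by RNA-seq of poly(A)-selected RNA from non-adherent bone marrow cells, labelled progenitors, of mice about 8 weeks old. Marrow had been kept for about 24 hours in alpha-MEM, so every group shares that culture step.

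The 12 libraries formed 4 groups of 3. Mice labelled control, with no further genotype given, were left untreated (control untreated) or drank water with short-chain fatty acids, SCFAs, up to that age (control SCFA). Mice labelled homozygous carried R26STAT3Cstopfl/fl CD4Cre and were likewise left untreated (homozygous untreated) or given SCFAs (homozygous SCFA). The genotype label reads R26STAT3Cstopfl/fl CD4Cre in homozygous untreated 1 and STAT3Cstopfl/fl CD4Cre in the other 5 homozygous libraries, and all 6 are titled homozygous. STAT3C is a constitutively active form of the transcription factor STAT3, released here by a Cre recombinase under the CD4 promoter, which acts mainly in T cells. The strain is not named in the sources used here. Libraries are named below by group and replicate number.

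The mitochondrial genome is a small circle that is read from both strands as long precursors, which are cut, mostly at the transfer RNAs that lie between the other genes, into separate messenger, ribosomal and transfer RNAs. Its messenger RNAs encode core subunits of the respiratory chain: subunits of complex I (mt-Nd1 to mt-Nd6 and mt-Nd4l), cytochrome b of complex III (mt-Cytb), subunits of cytochrome c oxidase, complex IV (mt-Co1 to mt-Co3), and subunits of the ATP synthase, complex V (mt-Atp6 and mt-Atp8). The ribosomal and transfer RNAs serve the mitochondrion's own ribosome, while the remaining subunits, the polymerase and the RNA-processing enzymes are encoded in the nucleus.

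Total counts ranged from 16954355 to 20748995 per library, so that 3 counts, the upper limit allowed by a count of 0, corresponded to 0.145 to 0.177 CPM, the count scaled to the library's total. In chi-square tests of their counts, replicate pairs exceeded sampling noise by 12.6 to 96.2 per degree of freedom, and each library counts as its own replicate. Whether replicates are separate mice is not stated in the labels, so that the spread behind the p-values may be technical. The control untreated libraries were spread along the second principal component (17.8% of the variance), with control untreated 1 at 4.63, 3 at 41.5 and 2 at 87.4. The untreated libraries carry day 1 and the SCFA libraries day 30 of month 3 in their labels, so treatment and this date cannot be told apart. Against the label progenitors, all 10 stem and progenitor markers examined were detected, with a summed level of 1718 to 4481 CPM, beside 40654 to 74401 CPM for 10 late neutrophil markers. The stem and progenitor list includes Mpo, Elane, Prtn3 and Ctsg, and the part of each gene in its sum is not given here. Such sums are not shares of cells. In such bulk samples, fewer cells of a type and less RNA per cell cannot be told apart.

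Fragments of the mitochondrial genome have been copied into nuclear chromosomes, so that some reads can match both places. The annotation holds 15 nuclear genes or pseudogenes that share at least 1 stretch of 50 bases with a mitochondrial gene, and 14 of them are in the table. Of these, 7 lie side by side on chromosome 1, from 24611535 to 24616197 on the minus strand (4663 bases), in the mitochondrial gene order. Their identity to the mitochondrial gene over the aligned length is 98.8% or higher, and 5 of the 7 have no mismatch. The following stretches, from GENCODE M21 transcripts on mm10 and written 5′ to 3′, show how closely a copy can match; capitals mark the bases that differ between the gene and its copy. The stretches of mt-Nd3 and its copy Gm28438 (chrM:9459-9519, plus strand, and chr1:24613059-24613119, minus strand) hold the single difference between them. Those of mt-Co3 and Gm28437 (chrM:9330-9389, plus, and chr1:24613189-24613248, minus) are identical, as are the genes along the 783 aligned bases. Those of mt-Co1 and Gm13340, on chromosome 2 (chrM:5787-5846, plus, and chr2:22589129-22589188, minus), hold 4 differences.
mt-Nd3: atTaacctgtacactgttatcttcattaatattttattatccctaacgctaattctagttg
Gm28438: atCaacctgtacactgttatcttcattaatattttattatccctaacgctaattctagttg
mt-Co3: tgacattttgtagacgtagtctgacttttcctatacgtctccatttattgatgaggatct
Gm28437: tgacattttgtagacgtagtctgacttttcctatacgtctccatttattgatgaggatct
mt-Co1: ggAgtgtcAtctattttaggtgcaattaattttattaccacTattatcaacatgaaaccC
Gm13340: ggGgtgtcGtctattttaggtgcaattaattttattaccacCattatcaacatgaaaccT

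The share of a gene's 50-base windows that also occur in an annotated nuclear transcript was used as a measure of this overlap. It exceeded 90% for 5 messenger RNA genes: mt-Co2 (100%), mt-Co3 (99.9%), mt-Atp6 (99.5%), mt-Nd4l (98.8%) and mt-Nd3 (98.0%). With windows of 100 bases the number was again 5. These 5 genes together held 4869 counts over the 12 libraries, 0.183% of the counts of all 13 messenger RNA genes. The other 8 genes held nearly all the rest, 45.5% in mt-Co1 and mt-Nd4, which shared 51.1% and 62.2% of their windows, and 54.4% in the 6 genes that shared under 20%.

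Per kilobase of transcript, the messenger and ribosomal RNA levels spanned mt-Co1 at 3023 ± 629 CPM per kb (mean ± SD over the 12 libraries) to mt-Nd4l at 0.590 ± 0.593. After mt-Co1 came mt-Cytb at 2684 ± 705, mt-Nd1 at 2297 ± 601 and the large ribosomal RNA mt-Rnr2 at 1700.4 ± 439 CPM per kb. These 4 neighbours lay close together: mt-Co1 exceeded mt-Cytb in 9 of 12 libraries, mt-Cytb exceeded mt-Nd1 in 10 and mt-Nd1 exceeded mt-Rnr2 in 11. A second tier held mt-Nd4 at 446 ± 142, mt-Nd2 at 330 ± 101, mt-Nd6 at 305 ± 84.7 and mt-Nd5 at 302 ± 72.0 CPM per kb, followed by the small ribosomal RNA mt-Rnr1 at 163 ± 35.7. Within it mt-Nd6, the only messenger RNA gene read from the other strand, exceeded mt-Nd5 in 7 of 12 libraries, so their order does not hold beyond the spread. A 12.8-fold gap separated mt-Rnr1 from the remaining messenger RNAs, with mt-Co3 at 12.8 ± 5.83, mt-Atp6 at 8.06 ± 3.77, mt-Co2 at 6.25 ± 3.43, mt-Atp8 at 5.33 ± 2.98 and mt-Nd3 at 2.84 ± 1.32 CPM per kb.

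**Figure D1:**
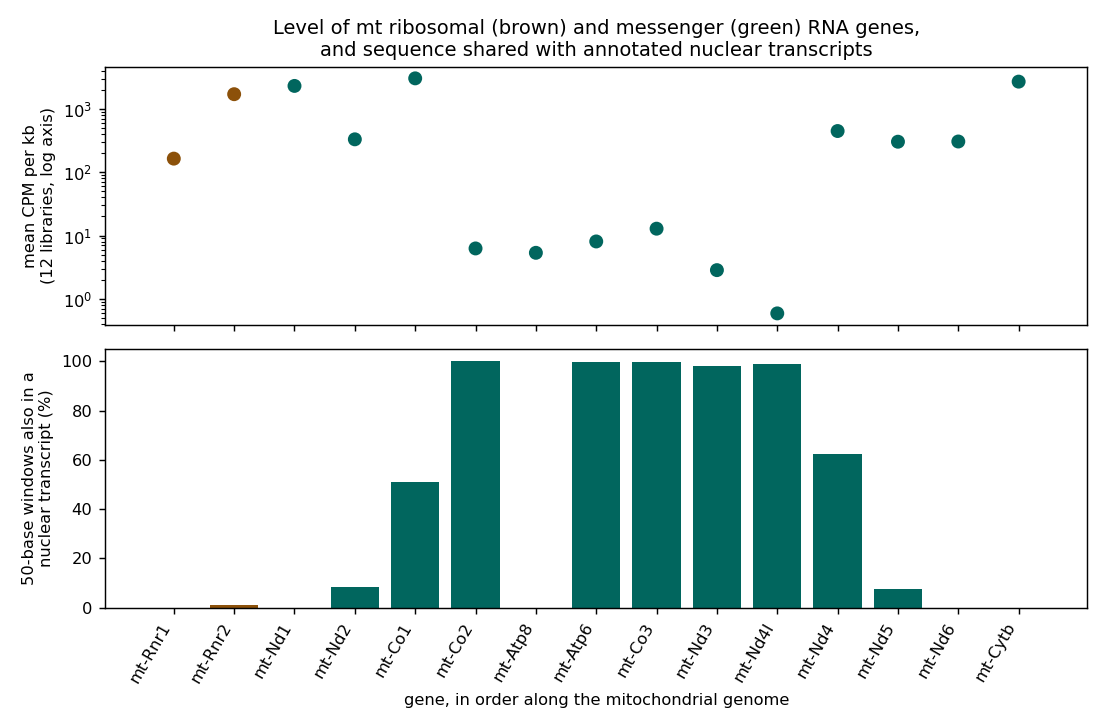
Mean CPM per kb over the 12 libraries (upper panel, log axis) and the percentage of 50-base windows also present in an annotated nuclear transcript (lower panel) for the ribosomal (brown) and messenger (green) RNA genes in genome order. The 5 genes with over 90% of windows shared lie at 12.8 CPM per kb or lower, and mt-Atp8 at 5.33 CPM per kb is as low with 0% shared.

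The 5 messenger RNA genes with over 90% of their windows shared were thus also 5 of the 6 lowest, and mt-Atp8 was the other. For mt-Atp8 no annotated nuclear transcript held any of its windows. In the chromosome 1 block, however, 233 bases lie between the copies of mt-Co2 and mt-Atp6 (24614652 to 24614884), a stretch not analysed here. mt-Atp8 also overlaps mt-Atp6 by 43 bases. Which counting setting was used for reads with several matches is not given in the sources used here, and the part that such reads play in these low levels was not tested.

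For several genes the nuclear copy was listed with more counts than the mitochondrial gene. Gm28437 had 5152 counts over the 12 libraries against 2339 for mt-Co3, with the copy ahead in 12 of 12 libraries. Gm10925 had 1566 against 1270 for mt-Atp6 (ahead in 12 of 12), Gm28661 had 1410 against 992 for mt-Co2 (10 of 12) and Gm10222 had 92 against 41 for mt-Nd4l (11 of 12). The order was the other way round for Gm28438, with 54 counts against 227 for mt-Nd3, which was ahead in every library. These values are given per symbol as deposited. For mt-Co2, mt-Co3, mt-Atp6, mt-Nd3 and mt-Nd4l the table does not show how reads that match both gene and copy were assigned.

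As a share of all counts, the messenger RNA genes took 1.33%, 0.679% and 0.850% in control untreated libraries 1, 2 and 3, and 1.13%, 1.28% and 1.08% in homozygous untreated libraries. In control SCFA libraries they took 1.36%, 1.44% and 1.67%, and in homozygous SCFA libraries 1.11%, 1.01% and 1.02%. All 3 control SCFA libraries lay above the libraries of every other group, the nearest being control untreated 1, while control untreated 2 and 3 were the lowest of all. The ribosomal RNA genes took 0.347%, 0.138% and 0.161% in untreated control and 0.336%, 0.327% and 0.231% in untreated homozygous mice, and with SCFA 0.299%, 0.299% and 0.359% in control and 0.339%, 0.315% and 0.263% in homozygous mice. Apart from control untreated 2 and 3, the ribosomal shares of the 4 groups overlapped. The transfer RNA genes took 0.00764% ± 0.00488 in control untreated, 0.0153% ± 0.00469 in the untreated homozygous group, 0.0186% ± 0.000856 with SCFA in control mice and 0.0118% ± 0.00188 with SCFA in homozygous mice (mean ± SD, n = 3).

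**Figure D2:**
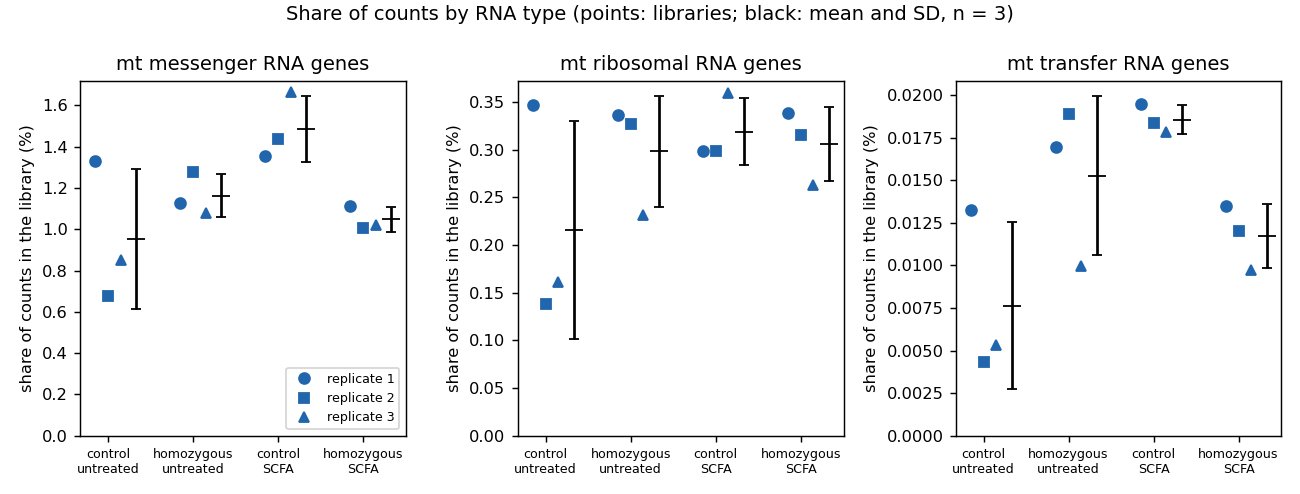
Share of each library's counts (%) from mitochondrial messenger, ribosomal and transfer RNA genes, with each library as a point and the mean and SD (n = 3) in black. Messenger shares are 1.36% to 1.67% in control SCFA libraries, and control untreated 2 and 3 are lowest in the messenger and ribosomal panels.

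The control untreated libraries differed among themselves more than those of any other group. The median coefficient of variation of the 12 tested messenger RNA genes was 52.6% there, against 24.1% in untreated homozygous mice and 15.1% and 15.8% in control and homozygous mice with SCFA. Control untreated 1 was the highest of its group for 12 of 12 messenger, 2 of 2 ribosomal and 10 of 11 transfer RNA genes tested. mt-Cytb had 3316 CPM in control untreated 1 against 2036 and 2410.05 in libraries 2 and 3, and mt-Rnr2 had 3270.3 against 1290.4 and 1509. The summed late neutrophil markers followed the order of mt-Cytb and mt-Rnr2, with 57347 CPM in control untreated 1, 40654 in 2 and 44349.5 in 3. Stem and progenitor markers ran the opposite way, at 2846, 4481 and 3672 CPM. So did B lineage, T and NK cell, plasmacytoid dendritic cell and eosinophil, basophil and mast cell markers. Of the 12 messenger RNA genes, 6 were lowest in library 2 and 6 in library 3. The part of cell types in these differences was not tested. Every comparison that uses the control untreated group is therefore given with and without its libraries.

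Between untreated homozygous and untreated control mice, no messenger or ribosomal RNA gene passed the test. Among the transfer RNA genes, counts of mt-Tq, the gene of the transfer RNA for glutamine, were higher in homozygous mice. Transfer RNA genes are 59 to 75 bases long and the libraries were poly(A)-selected. Whether their counts come from mature transfer RNAs or from longer precursors was not tested. mt-Tq had 96.7, 28.4 and 36.1 CPM in control untreated and 134, 147 and 71.1 CPM in homozygous untreated libraries. Control untreated 1 lay above the lowest homozygous library, so the groups overlapped. The log2 fold change of mt-Tq was 1.26 ± 0.38 (SE; adjusted p = 0.0408 in edgeR's quasi-likelihood test with Benjamini-Hochberg adjustment over 15674 genes). Of 12 messenger RNA genes tested 0 were called, with 4 at an unadjusted p under 0.05. Of all genes tested 14.8% were called, 6.69% higher and 8.13% lower. All 12 had a positive log2 fold change, at a median of 0.47 against -0.04 over all genes tested. DESeq2 called 1 of them, and limma-voom with quality weights 10, beside 3465 and 3922 of all 15674 genes.

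mt-Co1, the catalytic subunit of complex IV (chrM:5328-6872), had 5376, 2531 and 3662 CPM in control untreated and 4935, 5028 and 4787 CPM in homozygous untreated libraries. Control untreated 1 was the highest of the 6 libraries, and the other control libraries were below all homozygous ones. Its log2 fold change was 0.49 ± 0.21 (adjusted p = 0.126). mt-Rnr2 (chrM:1094-2675) had 3188, 3089.6 and 2175 CPM in homozygous untreated libraries and a log2 fold change of 0.61 ± 0.29 (adjusted p = 0.160), and mt-Rnr1 one of 0.47 ± 0.25 (adjusted p = 0.215). mt-Co3 was at 1.00 (adjusted p = 0.0771), mt-Nd4 at 0.59 (adjusted p = 0.145), mt-Cytb at 0.35 (adjusted p = 0.175) and mt-Nd1 at 0.34 (adjusted p = 0.371).

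These counts depended on single libraries as well as on the method. Without control untreated 1, 10 of the 12 messenger, both ribosomal and 5 of the 12 transfer RNA genes tested in that fit were called, with mt-Co1 at 0.82 (adjusted p = 0.00188) and mt-Rnr2 at 1.17 (adjusted p = 7.6e-04). Calls over all genes also rose in that fit, to 4333 of 16532 from 2323 of 15674 with all libraries. Without any other single library, 0 messenger RNA genes were called, and 770 to 2319 of all genes. The call of mt-Tq was kept without control untreated 1 or homozygous untreated 3 and lost in the other 10 fits, with adjusted p = 0.152 without control untreated 2 and 0.147 without control untreated 3. Those 10 include every fit without an SCFA library, although SCFA libraries enter this comparison only through the shared fit. Each fit without 1 library also filtered the genes anew. A lost call therefore cannot be assigned to the library left out alone.

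Under SCFA, mt-Cytb, the subunit of complex III that carries its quinone sites, was lower in homozygous than in control mice, while the ribosomal RNAs were at like levels. mt-Cytb (chrM:14145-15288) had 3618, 4285 and 4696 CPM in control SCFA and 2644, 2359 and 2483 CPM in homozygous SCFA libraries. All 3 homozygous libraries lay below all 3 control libraries. The log2 fold change of mt-Cytb was -0.74 ± 0.17 (adjusted p = 0.00994), a 1.67-fold lower level. It was the only call among 12 messenger RNA genes tested. Of all genes 17.4% were called, 8.89% higher and 8.47% lower, so the number of messenger RNA calls was not above that background. The groups did not overlap for 9 of the 12 genes, all lower in homozygous mice, against 21.3% of all genes with such a separation. The median log2 fold change was -0.55, against -0.02 over all genes tested, and 11 of 12 were negative.

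mt-Co1 had 5071, 5518 and 6296 CPM in control SCFA and 4452, 4019 and 4367 CPM in homozygous SCFA libraries, without overlap, but did not pass the test (log2 fold change -0.38 ± 0.21, adjusted p = 0.233). Of the other complex I and complex V genes, mt-Nd4 was at -0.74 (adjusted p = 0.0718), mt-Nd5 at -0.53 (adjusted p = 0.0942), mt-Nd1 at -0.32 (adjusted p = 0.413) and mt-Atp6 at -1.11 (adjusted p = 0.0825). In complex IV, mt-Co2 was at -1.28 (adjusted p = 0.111) and mt-Co3 at -1.04 (adjusted p = 0.0644). mt-Nd3, with 0.989 CPM on average, was the exception in sign at 0.64 (adjusted p = 0.553).

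Neither ribosomal RNA showed a separation of the groups, and whether they differ from the messenger RNAs in this was not tested. mt-Rnr2 had 2829, 2821 and 3391 CPM in control SCFA and 3237, 2982 and 2498 CPM in homozygous SCFA libraries, and mt-Rnr1 had 157, 168 and 201 against 154, 167 and 137 CPM. The 2 groups overlapped for both genes. Their log2 fold changes were -0.04 ± 0.29 (adjusted p = 0.947) and -0.19 ± 0.25 (adjusted p = 0.661). Of 11 transfer RNA genes tested 0 were called, with 1 at an unadjusted p under 0.05, none by DESeq2 and 2 by limma-voom, and mt-Tq was at -0.70 (adjusted p = 0.224).

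The count of messenger RNA calls under SCFA changed when single libraries were left out, also untreated ones that are not part of this comparison. It was 6 when control untreated 1 was left out, 4 for control untreated 2, 2 for homozygous SCFA 1, and 0 for control SCFA 3, homozygous SCFA 2 or homozygous SCFA 3. The call of mt-Cytb was lost only in those last 3 fits, with adjusted p up to 0.0760 over all alternatives. Calls over all genes ranged from 1431 without control SCFA 3 to 3282 without control untreated 1, against 2722 with all libraries.

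The ratio of mt-Rnr2 to mt-Cytb counts within a library put these differences on a scale that does not depend on library size. This ratio was chosen after the values were seen and was not tested. It was 0.986, 0.634 and 0.626 in untreated control and 1.12, 0.939 and 0.764 in untreated homozygous mice. With SCFA it was 0.782, 0.658 and 0.722 in control and 1.22, 1.26 and 1.01 in homozygous mice. The 3 homozygous SCFA libraries lay above all control SCFA libraries. The ratio of the ribosomal RNAs to each other, mt-Rnr2 to mt-Rnr1, ranged from 13.7 to 21.1 over the 12 libraries. For mt-Nd1 to mt-Cytb, both messenger RNAs, the ratio was 0.788, 0.586 and 0.649 in control SCFA and 0.924, 0.962 and 0.781 in homozygous SCFA libraries, which overlapped.

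**Figure D3:**
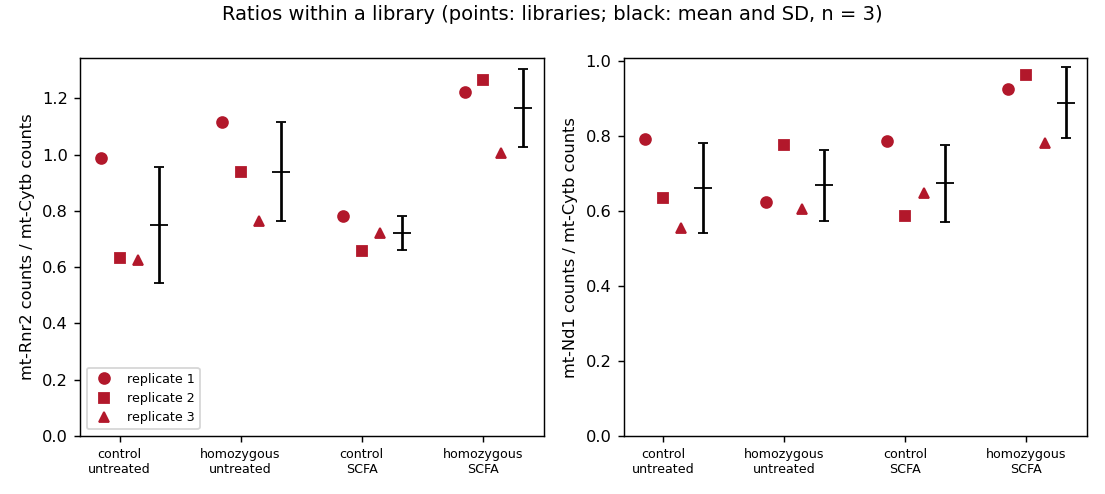
Ratios of counts within a library, with each library as a point and the mean and SD (n = 3) of each group in black. The mt-Rnr2 to mt-Cytb ratio is 1.01 to 1.26 in homozygous SCFA libraries and 0.658 to 0.782 in control SCFA libraries.

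The next comparison set control SCFA against control untreated libraries, and there the mitochondrial messenger RNAs were higher with SCFA. Treatment and label date cannot be told apart in it, so rose and fell mean only higher and lower in the SCFA libraries. Of 12 tested, 7 rose and 0 fell: mt-Cytb, mt-Co1, mt-Nd1, mt-Nd4, mt-Nd5, mt-Co3 and mt-Atp6. The background was 21.9% of all genes called, 8.89% higher and 13% lower. The median log2 fold change of the 12 was 0.79 against 0.04 over all genes tested, and 6 of 12 had no overlap between groups in the higher direction, against 13.9% of all genes. mt-Cytb rose 1.74-fold (log2 fold change 0.80 ± 0.17, adjusted p = 0.00884), with all control SCFA libraries above all control untreated libraries (3618 to 4696 CPM against 2036 to 3316).

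Among complex I subunits, mt-Nd4 (chrM:10167-11544) had 719, 297 and 389 CPM in control untreated and 735, 801 and 1002 CPM in control SCFA libraries. The lowest SCFA library was barely above control untreated 1 and well above the others. mt-Nd4 rose by 0.95 ± 0.27 (adjusted p = 0.0242) on the log2 scale, 1.93-fold. mt-Nd5 (chrM:11742-13565) had 617, 323 and 432 CPM against 629, 666 and 842 CPM, again without overlap, and rose by 0.74 ± 0.21 (adjusted p = 0.0233). mt-Nd1 (chrM:2751-3707) had 2626, 1292 and 1339 CPM against 2849, 2513 and 3046 CPM, where control untreated 1 exceeded 1 SCFA library, and rose by 0.77 ± 0.25 (adjusted p = 0.0421). mt-Nd2 at 0.78 (adjusted p = 0.0823) and mt-Nd6 at 0.75 (adjusted p = 0.0757) had like values and did not pass, and mt-Nd3 was at -0.41 (adjusted p = 0.696).

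In complex IV, mt-Co1 rose by 0.64 ± 0.21 (adjusted p = 0.0426), 1.56-fold, with 2531 to 5376 CPM in control untreated and 5071 to 6296 CPM in control SCFA libraries, which overlapped. mt-Co3 (chrM:8607-9390) had 10.3, 4.54 and 4.33 CPM against 17.0, 15.6 and 12.4 CPM, without overlap, and rose by 1.32 ± 0.37 (adjusted p = 0.0222), 2.50-fold. mt-Co2 was at 1.36 (adjusted p = 0.0784). In the ATP synthase, mt-Atp6 (chrM:7927-8607) had 6.18, 2.36 and 2.17 CPM against 8.53, 7.83 and 8.73 CPM, without overlap, and rose by 1.32 ± 0.42 (adjusted p = 0.0385), while mt-Atp8 was at 1.15 (adjusted p = 0.267). The nuclear copies of the same sequences had like values: Gm28437, identical to mt-Co3 as printed above, was at 1.18 (adjusted p = 0.0381), and Gm10925, the copy of mt-Atp6, at 1.23 (adjusted p = 0.0272). Gm13340, the mt-Co1 copy with 97.6% identity, was at 1.07 (adjusted p = 0.0424).

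Neither ribosomal RNA passed the test for SCFA in control mice. mt-Rnr2 was at 0.66 ± 0.29 (adjusted p = 0.113) and mt-Rnr1 at 0.51 ± 0.25 (adjusted p = 0.159), with 1 of the 2 at an unadjusted p under 0.05. DESeq2 called 0 and limma-voom 2. In both cases control untreated 1 lay within the range of the SCFA libraries. Of 11 transfer RNA genes, 2 rose and 0 fell. mt-Tq had 154, 141 and 138 CPM with SCFA, above all control untreated libraries, and rose 2.84-fold (log2 fold change 1.51 ± 0.38, adjusted p = 0.0156). mt-Te, the transfer RNA for glutamic acid, had 2.33, 0.885 and 0.740 CPM without and 4.05, 4.01 and 5.76 CPM with SCFA, without overlap, and rose 3.72-fold (1.89 ± 0.51, adjusted p = 0.0197). mt-Tc was at 1.20 (adjusted p = 0.0591), mt-Ta at 1.44 (adjusted p = 0.0745), mt-Tp at 0.32 (adjusted p = 0.453) and mt-Tl1 at 0.21 (adjusted p = 0.687).

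Of the 7 messenger RNA calls, that of mt-Cytb was lost without 1 library, control SCFA 3, with an adjusted p of 0.0620. mt-Nd4 and mt-Nd5 were each called in 8 of 12 fits without 1 library and mt-Co3 in 7, all 3 being lost without control untreated 2, control untreated 3, control SCFA 2 or control SCFA 3, and mt-Co3 also without control SCFA 1. mt-Atp6 was called in 4 of these fits, mt-Nd1 in 2 and mt-Co1 in 1, that without control untreated 1. The number called was 10 without control untreated 1, 4 without homozygous untreated 1, homozygous SCFA 2 or homozygous SCFA 3, and 3 without control SCFA 1. It was 1 without control untreated 2, control untreated 3 or control SCFA 2, and 0 without control SCFA 3. Calls over all genes ranged from 613 without control SCFA 3 to 5090 without control untreated 1, against 3432 with all libraries. Both ribosomal and 5 of 12 transfer RNA genes tested were called without control untreated 1, and no transfer RNA gene without control untreated 2, control untreated 3 or control SCFA 3.

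In homozygous mice no mitochondrial gene was called for SCFA. Of 12 messenger, 2 ribosomal and 11 transfer RNA genes tested, 0 rose and 0 fell, against 9.58% of all genes called, 3.96% higher and 5.61% lower. At an unadjusted p under 0.05 there were 0 messenger, 0 ribosomal and 1 transfer RNA gene, mt-Tl1, one of the transfer RNAs for leucine, at -0.82 (adjusted p = 0.148). DESeq2 and limma-voom each called 0 as well. The median log2 fold change of the messenger RNAs was -0.26, with 11 of 12 negative. mt-Cytb had 2855, 3291 and 2848 CPM without and 2644, 2359 and 2483 CPM with SCFA, the latter all lower, at -0.29 ± 0.17 (adjusted p = 0.329). mt-Co3 was at -0.72 (adjusted p = 0.244), mt-Co1 of the same complex at -0.23 (adjusted p = 0.560), mt-Nd1 at 0.11 (adjusted p = 0.843), mt-Rnr2 at 0.01 (adjusted p = 0.984) and mt-Tq at -0.46 (adjusted p = 0.508).

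**Figure D4:**
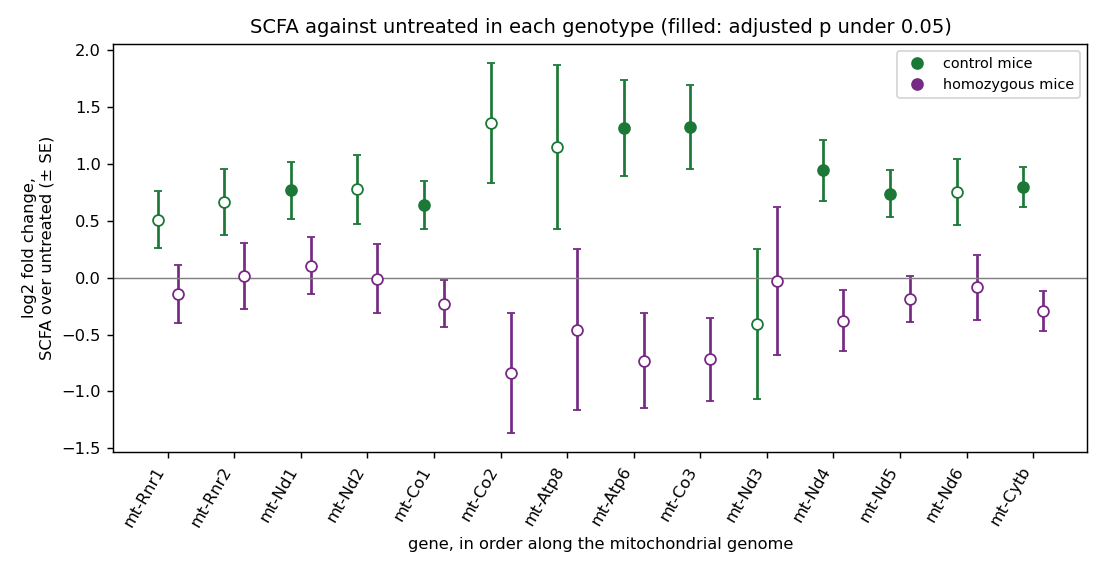
Log2 fold change (± SE) of SCFA over untreated in control and in homozygous mice for the tested mitochondrial genes in genome order, filled where the adjusted p was under 0.05. mt-Cytb is at 0.80 in control mice and -0.29 in homozygous mice.

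Whether SCFA differed in its difference between the genotypes was tested as an interaction. For 7 of 12 messenger RNA genes the SCFA difference was lower in homozygous than in control mice, and for 0 higher, against 25.1% of all genes called, 13.6% higher and 11.6% lower. The median interaction was -1.01 on the log2 scale, against -0.08 over all genes tested. mt-Cytb was at -1.09 ± 0.25 (adjusted p = 0.00731) and mt-Co3 at -2.04 ± 0.52 (adjusted p = 0.0122). The other 5 were mt-Nd4 at -1.32 ± 0.38 (adjusted p = 0.0207), mt-Atp6 at -2.05 ± 0.59 (adjusted p = 0.0221), mt-Nd5 at -0.92 ± 0.29 (adjusted p = 0.0325), mt-Co2 at -2.20 ± 0.75 (adjusted p = 0.0441) and, for the catalytic subunit of complex IV, mt-Co1 at -0.87 ± 0.30 (adjusted p = 0.0448). mt-Nd6 at -0.83 (adjusted p = 0.144), mt-Nd1 at -0.66 (adjusted p = 0.182) and mt-Nd2 at -0.78 (adjusted p = 0.196) did not pass. The called genes thus came from complexes I, III, IV and V.

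The ribosomal RNA genes did not pass, with mt-Rnr2 at -0.65 ± 0.41 (adjusted p = 0.259) and mt-Rnr1 at -0.65 ± 0.36 (adjusted p = 0.190). At an unadjusted p under 0.05 there were 0, and 0 with DESeq2 and 2 with limma-voom. Of 11 transfer RNA genes 1 was called lower, mt-Tq at -1.96 ± 0.54 (adjusted p = 0.0172). For the copies, Gm10925 was at -2.11 (adjusted p = 0.00973), Gm28437 at -1.93 (adjusted p = 0.0175) and Gm13340 at -1.66 (adjusted p = 0.0248).

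mt-Cytb and mt-Co3 kept the interaction call in all 12 fits without 1 library, with adjusted p up to 0.0298 and 0.0456 over all alternatives. mt-Nd4 and mt-Atp6 kept it in 6 fits, mt-Nd5 and mt-Co2 in 3 and mt-Co1 in 1, that without control untreated 1. The number called was 10 without control untreated 1 and 3 without control untreated 2 or homozygous untreated 1. It was 2 without control untreated 3, homozygous untreated 2, control SCFA 3, homozygous SCFA 2 or homozygous SCFA 3, and 4 without control SCFA 2. Calls over all genes ranged from 2455 without homozygous SCFA 2 to 5379 without control untreated 1, against 3938 with all libraries. Without control untreated 1 both ribosomal and 5 of 12 transfer RNA genes tested were called, and mt-Tq lost its call without homozygous untreated 2, homozygous SCFA 2 or homozygous SCFA 3. The interaction and the comparison of SCFA in control mice share the control untreated and control SCFA libraries, so they are not independent of each other.

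**Figure D5:**
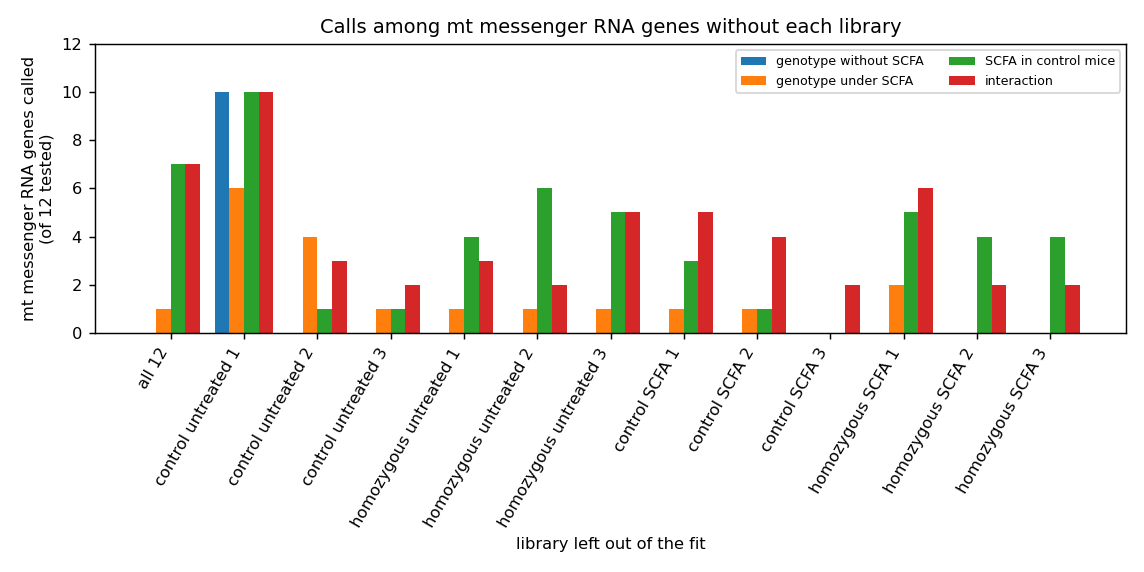
Number of the 12 tested mitochondrial messenger RNA genes called (adjusted p under 0.05) in each comparison, with all libraries and with each library left out. Leaving out control untreated 1 gives 10 calls in the comparison of genotypes without SCFA, for SCFA in control mice and for the interaction, against 0, 7 and 7 with all libraries. Calls over all genes are 4333, 5090 and 5379 in these fits, against 2323, 3432 and 3938 with all libraries.

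Among the 22 transfer RNAs, 11 had counts high enough to be tested, and mt-Tk, 1 of the other 11, had 0 counts in all 12 libraries. mt-Tq held 65.3% to 78.9% of all transfer RNA counts of a library. Its level of 1419 CPM per kb was 14.4-fold that of mt-Tp, the next highest at 98.6 CPM per kb, followed by mt-Tc at 96.8 and mt-Ta at 72.3. All 4 are encoded on the minus strand. Libraries were made from poly(A) RNA, so the longest run of A in each gene was recorded. The sequences of mt-Tq (chrM:3772-3842, minus strand) and of mt-Tr, the transfer RNA for arginine (chrM:9808-9875, plus strand), are given for the highest level and for the longest run, with that run of A in capitals. mt-Tr has 8 A in a row and 2 counts in all 12 libraries together, and mt-Tq, with at most 2 A in a row, has the most counts. The relation of such runs to the counts was not tested over the transfer RNA genes. These counts are not a measure of mature transfer RNA, since reads of longer precursors were not told apart. mt-Tq also overlaps mt-Ti by 3 bases on the other strand, and no strand setting is given in the sources used here.
mt-Tq: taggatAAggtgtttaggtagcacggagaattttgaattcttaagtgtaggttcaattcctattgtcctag
mt-Tr: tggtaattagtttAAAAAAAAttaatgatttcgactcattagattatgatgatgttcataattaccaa

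The nuclear genes that serve the mitochondrial genome were examined as 7 lists, of which the named genes are those of the naming rule whose call held in all 12 fits without 1 library (21 of 57). The shares of all genes called higher and lower, against which the counts are to be read, were 6.69% and 8.13% between genotypes without SCFA and 8.89% and 8.47% under SCFA. For SCFA they were 8.89% and 13% in control mice and 3.96% and 5.61% in homozygous mice, and for the interaction 13.6% and 11.6%. Of 24 genes for transcription and replication of mitochondrial DNA, 2 rose and 1 fell between genotypes without SCFA, 0 and 2 under SCFA, 3 and 4 with SCFA in control mice and 0 and 0 in homozygous mice. Over the 12 fits without 1 library these counts ranged from 0 to 3 and 0 to 3, 0 to 0 and 1 to 3, 0 to 4 and 0 to 6, and 0 to 0 and 0 to 2. Mterf2, of the mitochondrial transcription termination factor family, had 22.7 ± 4.87 CPM in control SCFA and 4.74 ± 0.750 CPM in homozygous SCFA libraries (mean ± SD, n = 3) and fell by 2.24 ± 0.27 on the log2 scale (adjusted p = 5.8e-05). For the interaction 2 were called higher (0 to 5 without 1 library) and 4 lower (2 to 6), the latter including Ssbp1, the mitochondrial single-stranded DNA-binding protein, at -1.16 ± 0.29 (adjusted p = 0.0122).

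Of 38 genes for processing and decay of mitochondrial RNA, 5 rose and 2 fell between genotypes without SCFA, 0 and 1 under SCFA, 0 and 5 with SCFA in control mice and 0 and 2 in homozygous mice. Over the 12 fits without 1 library these counts ranged from 0 to 8 and 0 to 3, 0 to 3 and 0 to 1, 0 to 7 and 0 to 10, and 0 to 0 and 0 to 3, and without control untreated 1 they were 7 and 10 for SCFA in control mice. The interaction was higher for 4 (2 to 7 without 1 library) and lower for 2 (0 to 6). The former included Fastk at 1.47 ± 0.32 (adjusted p = 0.00658), a member of the FASTK family of mitochondrial RNA-binding proteins, and Ptcd1 at 1.36 ± 0.34 (adjusted p = 0.0112), a pentatricopeptide repeat protein. Of 15 regulators of mitochondrial biogenesis, 0 to 1 rose and 0 to 1 fell in each comparison of 2 groups, and up to 2 rose and up to 4 fell without 1 library. Tfeb, a transcription factor of lysosomal and mitochondrial genes, had 58.4 ± 12.4 CPM in untreated control and 27.7 ± 5.09 in untreated homozygous mice, and 32.6 ± 6.19 and 49.1 ± 8.38 in the same genotypes with SCFA. It fell by 0.93 ± 0.19 between genotypes without SCFA (adjusted p = 0.00645), with an interaction of 1.53 ± 0.26 (adjusted p = 0.00196).

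The nuclear subunits of the complexes to which the mitochondrial messenger RNAs contribute were counted in the same way. Without SCFA, where 6.69% of all genes were called higher and 8.13% lower, 10 of 36 complex I genes rose and 1 fell in homozygous mice, 1 and 0 of 9 in complex III, 5 and 0 of 11 in complex IV, and 5 and 0 of 17 in complex V. Without control untreated 2 or without control untreated 3, only 1, 0, 0 and 0 were called higher, while 14, 2, 6 and 7 were without control untreated 1. Under SCFA, against 8.89% of all genes called higher and 8.47% lower, the counts higher and lower in homozygous mice were 6 and 0 for complex I, 4 and 1 for complex III, 3 and 0 for complex IV, and 5 and 0 for complex V, with 3 to 14, 2 to 5, 1 to 3 and 0 to 5 higher over the 12 fits without 1 library. Ndufb7, a small complex I subunit, rose by 0.79 ± 0.18 (adjusted p = 0.00701), Ndufa8 of complex I by 0.79 ± 0.16 (adjusted p = 0.00472), Uqcr11 of complex III by 0.94 ± 0.19 (adjusted p = 0.00377) and Cox4i1 of complex IV by 0.73 ± 0.15 (adjusted p = 0.00461). Uqcrc2, a core subunit of complex III, fell by 0.51 ± 0.11 (adjusted p = 0.00672). In this comparison mt-Cytb of complex III was lower, as given above.

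With SCFA in control mice, against 8.89% of all genes called higher and 13% lower, 7 complex I genes rose and 8 fell, 1 and 4 in complex III, 0 and 2 in complex IV, and 3 and 4 in complex V. Uqcrc1, the other core subunit of complex III, fell by 0.80 ± 0.16 (adjusted p = 0.00702). The complex I counts were 1 higher and 5 lower with control untreated 2 left out, 1 and 7 with control untreated 3 left out, and 0 to 10 higher and 0 to 9 lower over the 12 fits without 1 library. In the same fits complex III ranged from 0 to 1 and 1 to 4, complex IV from 0 to 3 and 0 to 3, and complex V from 0 to 6 and 0 to 4. With SCFA in homozygous mice 1 complex I and 1 complex III gene fell and no other subunit was called, and without 1 library up to 2 rose and up to 2 fell in a complex. The complex III gene was Uqcrc2, which fell by 0.63 ± 0.11 (adjusted p = 0.00245). For the interaction the counts higher and lower were 9 and 7 for complex I, 4 and 2 for complex III, 2 and 3 for complex IV, and 2 and 5 for complex V. Over the 12 fits without 1 library they were 7 to 12 and 2 to 14 for complex I, 3 to 4 and 1 to 2 for complex III, 2 to 3 and 0 to 5 for complex IV, and 1 to 4 and 1 to 6 for complex V. Interactions were positive for Ndufb7 at 1.26 ± 0.25 (adjusted p = 0.00377), Ndufs7 at 1.26 ± 0.27 (adjusted p = 0.00612), Uqcr11 at 1.18 ± 0.27 (adjusted p = 0.00722), Cox4i1 at 1.02 ± 0.21 (adjusted p = 0.00496), Cox8a at 0.91 ± 0.23 (adjusted p = 0.0126) and Atp5d at 1.29 ± 0.27 (adjusted p = 0.00466). They were negative for Uqcrc2 at -0.79 ± 0.16 (adjusted p = 0.00427) and Atp5mpl, a small subunit of the ATP synthase, at -1.16 ± 0.29 (adjusted p = 0.0112).

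The 10 marker lists of other cell types were summed in the same groups. The summed level of 10 B lineage markers was 1585 to 1725 CPM in untreated control, 489 to 546 in untreated homozygous, 1501 to 1511 in SCFA-treated control and 145 to 159 in SCFA-treated homozygous mice. That of 10 erythroid markers was 19802 to 21338, 9173 to 11653, 11632 to 13187 and 2563 to 3002 CPM in the same order. Stem and progenitor markers summed to 2846 to 4481, 2565 to 3520, 1718 to 2260 and 2502 to 3501 CPM, and late neutrophil markers to 40654 to 57347, 58317 to 74401, 60439 to 62312 and 60979 to 69897 CPM. Monocyte markers summed to 5154 to 5816, 7263 to 7317, 5943 to 6339 and 7313 to 7992 CPM. Between genotypes without SCFA, 7 of 10 monocyte markers were called higher and 1 lower, against 6.69% and 8.13% of all genes. The counts higher and lower were 0 and 10 of 10 for B lineage and 1 and 5 of 10 for erythroid markers. The other lists had 0 to 4 higher and 0 to 2 lower. Plasmacytoid dendritic cell markers summed to 796 to 979, 354 to 430, 698 to 753 and 127 to 176 CPM, and megakaryocyte markers to 588 to 612, 499.5 to 621, 718 to 767 and 1106 to 1297 CPM. The sums were 2208 to 2400.2, 1969 to 2386, 1419.8 to 1460.1 and 1624 to 1757 CPM for eosinophil, basophil and mast cell markers, and 283 to 355, 398 to 459, 389 to 429.9 and 462 to 502 CPM for stromal and adherent cell markers. T and NK cell markers summed to 116 to 149, 96.4 to 110.2, 80.7 to 84.8 and 80.7 to 96.1 CPM. No marker of these lists was at 0 in all libraries. The part of these differences in the mitochondrial results was not tested.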

How the data were processed

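RNA-seq counts were available for 12 libraries, 3 in each of 4 groups assigned from their titles. The labels' protocols name the Qiagen RNeasy Plus Micro kit for extraction and a low-input poly(A) protocol for the libraries. Per the submitters' processing notes, STAR was the aligner, featureCounts the counter and mm10 the build. Read length, strand setting, annotation, tool versions and how reads with several matches were counted are not given in these sources. The deposited values are whole-number counts per gene symbol, not normalized by the authors.

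CPM was computed here from total counts. The test was edgeR's quasi-likelihood F test (edgeR 4.0.16, R 4.3.3) with TMM factors on the 15674 genes that filterByExpr kept. A single fit of the 12 libraries gave each group its mean, and a Benjamini-Hochberg adjusted p under 0.05 was a call. The SE is the log2 fold change divided by the square root of F. A gene was tested only if it passed the filter: 12 of 13 messenger, 2 of 2 ribosomal and 11 of 22 transfer RNA genes did. The procedure was also run on counts simulated with the spread estimated from these libraries. No library was made to stand apart there, so that run does not cover the dependence on single libraries. Limits from counts cover counting error only.

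Sequences and coordinates came from GENCODE M21 transcripts of mm10. The alternatives were RLE factors, scaling without mitochondrial genes, no filter, DESeq2 1.42.0, limma-voom (limma 3.58.1), a replicate block, a fit of the compared groups alone, and each library left out. Fits without 1 library repeated the filter, which then kept 16449 to 16601 genes instead of 15674, and had fewer libraries to estimate the spread. The same alternatives for the nuclear lists and copies, and windows of 100 bases, were added after seeing the data.

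All messenger and ribosomal RNA genes, the 5 transfer RNA genes with the highest mean CPM and any called one are named. Of each nuclear list with a call the rule names the 2 members with the smallest p. Copies were named after their values were seen. Members and lists were chosen with earlier results of these data known.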

Additional observations from a re-analysis of the deposited data

Results flagged for a closer look

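For 8 of 25 mitochondrial genes tested, against 25.1% of all genes (11.6% lower), the SCFA difference itself differed between genotypes in the interaction test, in each case lower in homozygous than in control mice. On the log2 scale the difference was -2.20 for mt-Co2, -2.05 for mt-Atp6, -2.04 for mt-Co3, -1.96 for mt-Tq, -1.32 for mt-Nd4, -1.09 for mt-Cytb, -0.92 for mt-Nd5 and -0.87 for mt-Co1. Among these, mt-Cytb and mt-Co3 were called in all 12 fits without 1 library. mt-Co2, mt-Atp6 and mt-Co3 are genes whose sequence nearly all recurs in annotated nuclear transcripts.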

How the results depend on the processing

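With single libraries left out, the numbers of messenger RNA genes called ranged from 0 to 10 between genotypes without SCFA, 0 to 6 under SCFA, 0 to 10 for SCFA in control mice and 2 to 10 for the interaction. Calls over all genes ranged from 770 to 4333, 1431 to 3282, 613 to 5090 and 2455 to 5379 in the same order. Over all genes DESeq2 called 3465, 3458, 4506 and 4800, and limma-voom 3922, 4762, 5064 and 5806. The messenger RNA calls stayed at 0 for SCFA in homozygous mice in every setting. Without SCFA, DESeq2 called 1, no filter on low counts 3 and limma-voom 10. Under SCFA, the replicate block gave 2, DESeq2 3, no filter 6, limma-voom 7 and a fit of only the groups compared 7, while that last setting gave 2 for SCFA in control mice. The numbers for ribosomal RNA genes were 0 or 2 in every setting. Same-numbered libraries did not deviate together: over 18 pairs the correlation ranged from -0.11 to 0.11, 1 was over 0.1, and 12 of 36 libraries' best matches carried their own number, so the replicate block is no pairing. With the block, 8 messenger RNA genes were called for SCFA in control mice and 7 for the interaction.

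Of 1127 log2 fold changes of mitochondrial genes under alternatives, 11 changed sign, all of results that were not called. mt-Rnr2 was at 5.9e-04 under SCFA with only the groups compared and from -0.15 to 0.085 without 1 library, and for SCFA in homozygous mice at -0.0806 with limma-voom and from -0.13 to 0.12 without 1 library. mt-Nd3 for SCFA in control mice was at 0.34 with limma-voom and from -0.81 to 0.0029 without 1 library, and mt-Nd1 for SCFA in homozygous mice from -0.015 to 0.32. The cause of these changes was not tested. Another 112 lost a call and 95 gained one. All 60 values of the group shares under alternatives moved by less than the SD of their group. Leaving 1 library out of so small a group cannot move its mean by that SD. Values of that kind could not have failed, so they do not show that the shares are stable. Depth limits what can be said of genes under 1 CPM, such as mt-Nd3 and mt-Nd4l.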
